A study of Mus musculus with 4 samples.

Results

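Chromosome 17 outside the H2 region was measured with 5819 array probes in 4 mouse liver tumours. Members were the probes that the array files place on chromosome 17 of the mouse build mm9, with a start before 33.5 Mb or at or after 38.5 Mb. They were 5819 of 169093 placed probes and 5819 of 6398 probes on the chromosome, the other 579 lying in the stretch of the H2 genes between those limits. The proximal members (2254 probes, 3006536 to 33495110) lie on the centromere side of that stretch, and the distal members (3565 probes, 38501698 to 95254967) lie beyond it. The region was selected on its measured level in these tumours, so the levels below are a description with no test.

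Array comparative genomic hybridization binds 2 dyed DNA samples to one set of probes, and the log2 ratio of the dyes follows the copy number of the tumour relative to the reference. The tumours (1 to 4, in no order) came from 4 untreated mice of the genotype Trp53-/-, and the series title places the loss in the liver of C57BL/6J mice. Trp53 encodes p53, which guards cells against unrepaired DNA damage and chromosome missegregation. Each tumour carried Cy5 and was set against Cy3-labelled spleen DNA pooled from 3 sex-matched littermates (liver, by the wording of the labelling protocol). By the labels the reference mice were Trp53-/- males as well, so the controls carry the same genotype label as the tumours. Whether the reference DNA carried the deletion was not tested. The driver of the deletion and the ages were not given in the sources used here, and a tumour sample can hold stroma and blood cells beside tumour cells.

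Mouse chromosome 17 has its centromere at one end. Next to it lies the t complex, a block of linked genes known for variants that bias inheritance, and the imprinted gene Igf2r. The H2 genes, the mouse major histocompatibility complex, follow, and beyond them lie long genes such as Ptprm and Alk. A gain or loss of a whole chromosome moves all of its probes together, whereas a local change moves a run of neighbouring probes.

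The 4 arrays lay on 2 slides (tumours 1 and 2, tumours 3 and 4) and measured 5818 or 5819 of the members. The noise SD between neighbouring probes was 0.12, 0.37, 0.15 and 0.15 (log2) for tumours 1 to 4, so tumour 2 gave the least precise values, and its header put that spread outside the accepted range. Arrays 1 and 4 went against the labelled male sex. The mean log2 ratio on X was -0.82 in tumour 1 and 0.84 in tumour 4, and on Y it was 2.22 and -2.35. On array 1 it was the reference channel that stood apart, with X at 0.86 and Y at -2.62 relative to the mean of the other 3 reference channels. On array 4 it was the tumour channel, with X at 0.83 and Y at -2.16 relative to the other 3 tumour channels. Results that rest on array 1 or array 4 are given per array for this reason.

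Besides the level of the chromosome as a whole, the members' data turn on 2 short stretches in which neighbouring probes left that level together. The sequences below are the probes at their borders, where the ratio changed, and the probes inside with the highest value in tumour 1 (first stretch) or the lowest in tumour 4 (second stretch). They are written as in the array files, with G and C in capitals because the ratio also followed the G and C content of the probes. The strand was not given in the files, and whether a probe lies in an exon or an intron was not analysed here.
Tulp4, last probe before the first stretch, chr17:6211001-6211060: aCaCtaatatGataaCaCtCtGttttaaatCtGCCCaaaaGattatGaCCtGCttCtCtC
Tulp4, first probe inside, chr17:6219320-6219379: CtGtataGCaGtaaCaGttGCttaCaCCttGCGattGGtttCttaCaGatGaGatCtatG
AK014409, highest inside in tumour 1, chr17:6404250-6404309: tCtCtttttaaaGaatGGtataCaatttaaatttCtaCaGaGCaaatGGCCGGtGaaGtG
AK014409, last probe inside, chr17:6622057-6622116: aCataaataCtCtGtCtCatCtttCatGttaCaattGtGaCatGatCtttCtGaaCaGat
Sytl3, first probe after, chr17:6930476-6930534: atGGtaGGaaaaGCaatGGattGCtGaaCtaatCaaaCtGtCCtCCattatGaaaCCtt
Tbc1d5, last probe before the second stretch, chr17:51281809-51281868: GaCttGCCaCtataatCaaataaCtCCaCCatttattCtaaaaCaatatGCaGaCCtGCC
Tbc1d5, first probe inside, chr17:51289949-51290008: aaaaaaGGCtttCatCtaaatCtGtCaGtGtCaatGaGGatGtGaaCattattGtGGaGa
no gene name, lowest inside in tumour 4, chr17:51349598-51349657: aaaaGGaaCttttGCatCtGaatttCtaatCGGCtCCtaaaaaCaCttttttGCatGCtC
no gene name, last probe inside, chr17:51447368-51447427: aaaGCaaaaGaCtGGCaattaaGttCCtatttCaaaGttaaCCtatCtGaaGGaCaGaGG
no gene name, first probe after, chr17:51477675-51477734: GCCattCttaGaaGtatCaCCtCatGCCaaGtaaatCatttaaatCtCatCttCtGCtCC

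The first stretch (6219320 to 6622116, 403 kb, 38 probes) holds the end of Tulp4, a gene of the tubby-like family, the single probe of the transcript AK139719, the transmembrane protein gene Tmem181 and the transcript AK014409. In tumour 1 its mean was 0.28, a ratio of 1.22, and 37 of 38 probes lay above 0. The 20 probes before it averaged -0.033 and the 20 after it -0.056 in the same tumour. The stretch averaged 0.12 in tumour 2, 0.061 in tumour 3 and -0.084 in tumour 4. Tumour 1 was therefore the highest and tumour 4 the lowest, and only the value of tumour 1 was called as a gain, which requires at least 5 probes and a segment mean at or beyond 0.2 or -0.2. Called segments held 38, 0, 8 and 8 of the members in tumours 1 to 4, which is 0.65%, 0%, 0.14% and 0.14% of them. The shares of all autosomal probes were 4.36%, 4.66%, 0.115% and 7.72%. The members thus lay below that share in tumours 1, 2 and 4 and near it in tumour 3. The gain was not called with the intensity trend of the ratio removed or with a threshold of 0.3.

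All the genes of that stretch were raised in tumour 1, and the border fell inside Tulp4. Tmem181 (6 probes) lay at 0.32, -0.022, -0.040 and -0.14 in tumours 1 to 4. AK014409 (28 probes) lay at 0.29, 0.18, 0.079 and -0.051. The 3 Tulp4 probes inside averaged 0.22 in tumour 1, against 0.024 for all 14 probes of the gene. Even in tumour 1 the probes inside were not uniform, with a lowest value of -0.010 and a highest of 0.47. The next member after the last probe, a Sytl3 probe, came only after a gap of 308 kb, so the distal border is known no more closely than that. On array 1 the tumour channel of the stretch lay 0.17 above the mean of the other arrays' tumour channels, and the reference channel 0.073 below that of the other references. Over all members the same channels of array 1 lay at 0.024 and 0.106, so both left their level in the stretch. With 1 reference per array, a difference of the tumour DNA cannot be told apart here from one of the reference DNA.

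The second stretch (51289949 to 51447427, 157 kb, 8 probes) begins inside Tbc1d5, whose protein carries a domain of Rab GTPase regulators. It averaged -0.12 in tumour 1, -0.056 in tumour 2, 0.55 in tumour 3 and -0.48 in tumour 4. Tumours 3 and 4 thus stood on opposite sides, called as a gain and as a loss with the same first and last probe. In tumour 3 all 8 probes lay above 0 and 7 of 8 at or above 0.2. In tumour 4 all 8 lay at or below -0.2. The 20 probes before the stretch averaged -0.058 and -0.052 in these 2 tumours, and the 20 after it -0.028 and 0.067, so both departures ended at the same borders. The loss in tumour 4 was not called after normexp background correction, and neither call was made with a penalty factor of 6 in place of 3 for new segments.

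The channels of these 2 arrays were set against those of the other arrays. On array 3 the tumour channel of the stretch lay 0.52 above the mean of the other arrays' tumour channels. The tumour channels of arrays 1, 2 and 4 lay at -0.21, -0.22 and -0.091, each against a mean that includes array 3. The tumour channel of array 4 was thus above those of arrays 1 and 2. The reference channels of arrays 1, 2 and 3 lay at -0.087, -0.19 and -0.25, each against a mean that includes array 4. On array 4 the reference channel lay 0.51 above the mean of the other references, each of its 8 probes between 0.36 and 0.64. Of the 2 channels of array 4, the reference thus lay farther from the other arrays. Array 4's reference was not the channel that went against the sex label. Each array has a single reference sample, so the difference between references has no replicate check, and a difference of the tumour DNA cannot be told apart from one of the reference DNA.

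**Figure D1:**
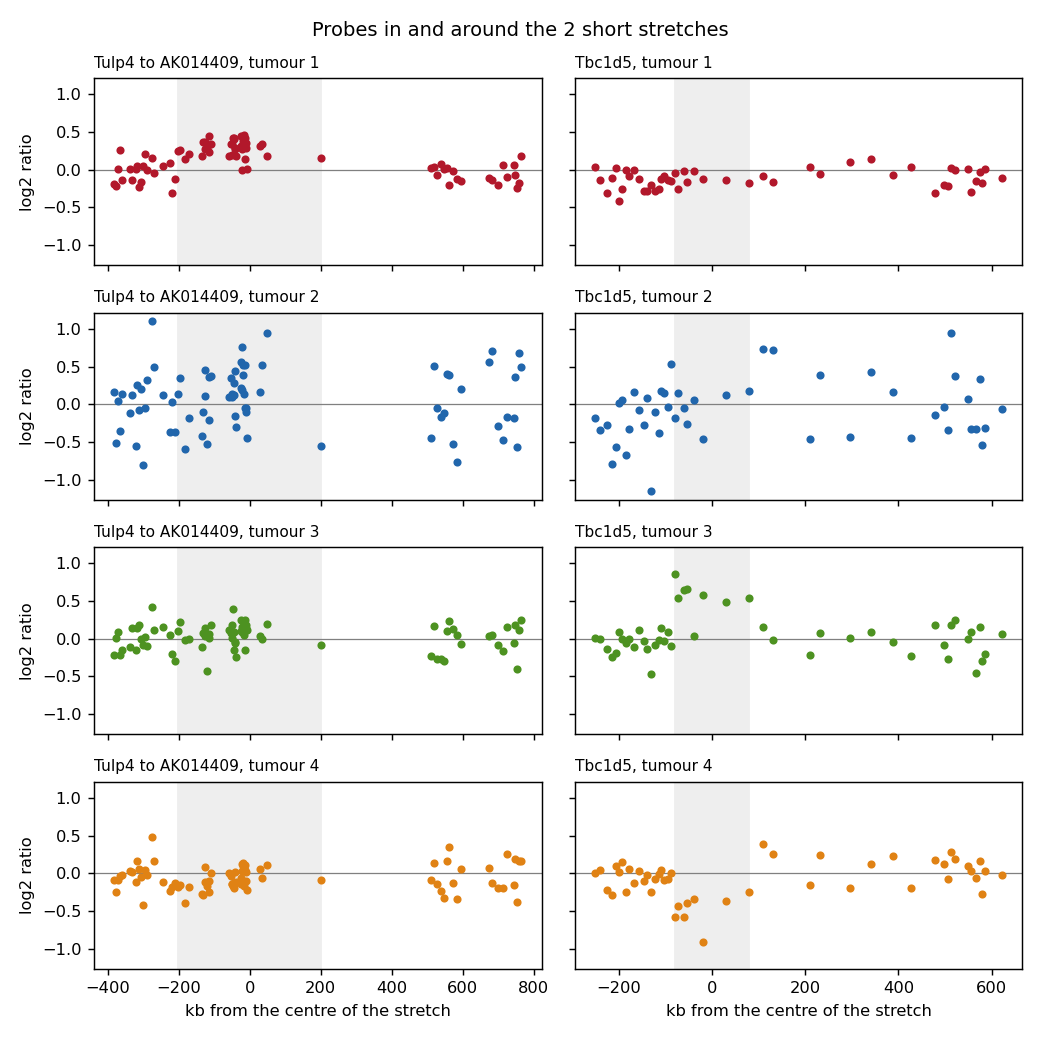
Log2 ratio of tumour over reference (y axis) for the probes of the 2 short stretches, shaded, and 20 probes on each side, by distance in kb from the centre of the stretch (x axis), with 1 row per tumour. In the left column the shaded probes of tumour 1 average 0.28, and in the right column those of tumour 3 average 0.55 and those of tumour 4 -0.48.

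Over all members the mean log2 ratio was -0.075 in tumour 1, 0.00045 in tumour 2, 0.0031 in tumour 3 and -0.0030 in tumour 4. Tumour 1 stood apart below 0, and the other 3 lay within 0.004 of 0 with this centring. The average over the tumours was -0.019 ± 0.038 (SD, n = 4), and without tumour 1 it was 0.000197 ± 0.0031 (SD, n = 3), so with these values the sign of the average rests on tumour 1. Centring each array on the mode of its ratios instead of the median put the tumours at -0.082, -0.028, -0.032 and 0.013, with an average of -0.032, and of -0.015 without tumour 1. Over the background, centring and trend settings tried, the average without tumour 1 lay between -0.015 and 0.0045, on both sides of 0. Tumour 2 lay at -0.019 after normexp background correction. Tumour 1 was the lowest under each of these settings. In tumour 1 the odd and the even member probes averaged -0.073 and -0.077. Of its member probes 73.0% lay below 0, where centring on the median puts autosomal probes equally on both sides of 0. The region was the third lowest autosome of tumour 1 by its mean, after chromosomes 9 and 12.

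The level of tumour 1 equals a ratio of 0.949. For scale, the loss of 1 of 2 copies in 10.1% of the cells would give that ratio if the array followed copy number without compression, and loss in all cells would give -1. Whether such a loss took place was not tested. The members nearest the excluded stretch lay at a like level to the probes just past its limits in tumour 1. The last 20 proximal members averaged -0.081 and the next 20 probes, inside the H2 stretch, -0.091, while at the distal limit the values were -0.061 inside the members and -0.090 in the H2 stretch.

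In bins of 5 Mb, tumour 1 lay below 0 in 20 of 20 bins, where 48.6% of all 502 autosomal bins of that tumour lay below 0. The bin means ran from -0.101 (95 to 100 Mb, 21 probes) to -0.014 (5 to 10 Mb, 333 probes), and that highest bin holds the raised stretch around Tmem181. It was the lowest of the 4 tumours in 18 of 20 bins. The exceptions were the bins at 35 to 40 Mb, which holds only 46 members, and at 90 to 95 Mb, where tumour 2 lay lower at -0.14 and -0.081.

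**Figure D2:**
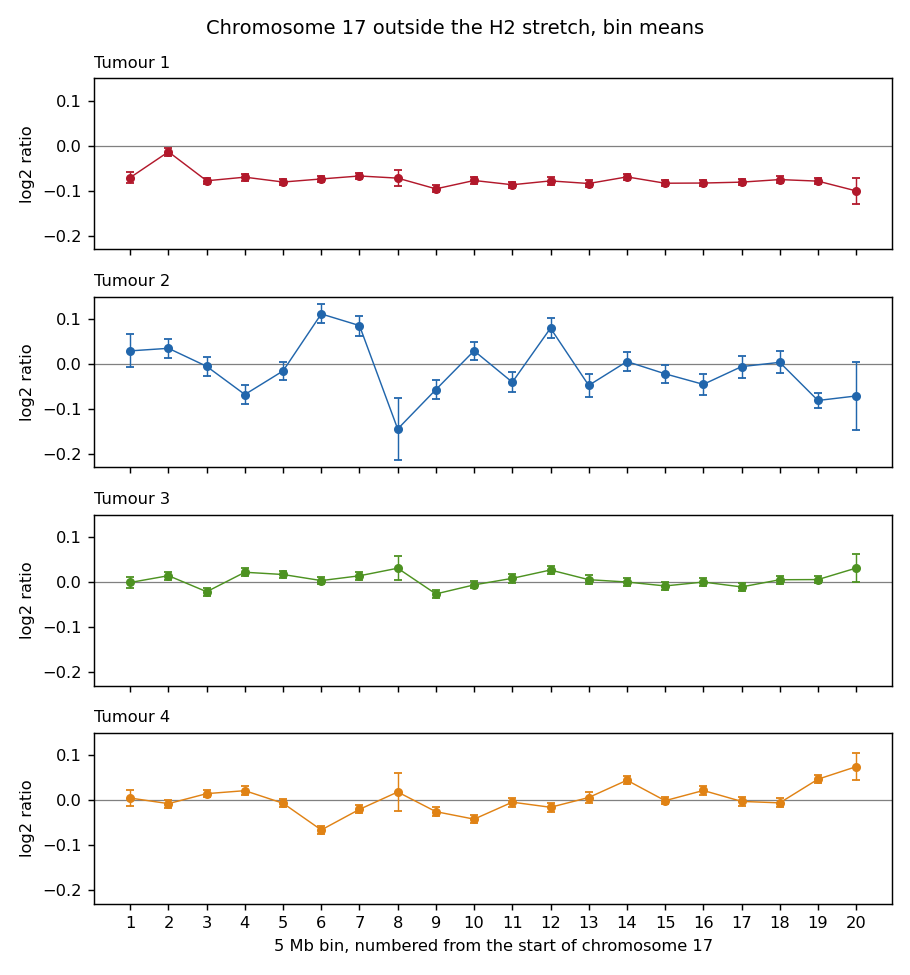
Mean log2 ratio (y axis) of each 5 Mb bin, numbered from the start of the chromosome (x axis), with the SE over the probes of the bin as error bars and 1 panel per tumour. All 20 bins of tumour 1 lie below 0 and all but the second lie close together, whereas the bins of tumours 2, 3 and 4 lie on both sides of 0.

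Whether the shift of tumour 1 was even was asked by setting the SD between bin means against the SD that probe noise within bins alone would give. With all members the SD between bins was 0.0169 against 0.0105, a ratio of 1.61. Without the 38 probes of the raised stretch, an alternative chosen after the bin means were seen, it was 0.0104 against 0.0104, a ratio of 0.998, and the bins ran from -0.101 to -0.052. By this measure the bins outside that one stretch varied about as much as probe noise gives. That noise SD is raised by 2 bins with few probes. They are the bins at 35 to 40 Mb (46 probes, SE 0.017) and 95 to 100 Mb (21 probes, SE 0.029). With normexp background correction the SD between bins, with all members, was 0.0275. The highest of the remaining bins was still the one at 5 to 10 Mb.

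The same measure on the other autosomes of tumour 1 gives the scale. With that tumour's segments under 3 Mb left out everywhere, the ratio ranged from 0.998 on chromosome 17 to 3.85, with a median of 1.60 over 19 autosomes. Chromosome 17 had the lowest ratio of the 19 and the third lowest SD between bins. However, its bins at 35 to 40 Mb and 95 to 100 Mb hold few probes, which raises the SD that noise gives. With all probes kept it ranked 8 of 19 from the low end by the ratio and 14 of 19 by the SD. Each autosome was also split where the means on its sides differed most, weighted by probe number. Each side held at least 200 probes. By that difference chromosome 17 ranked 12 of 19 from the low end, at 0.022 beside a median of 0.017. With all probes kept it ranked 17 of 19, at 0.050, so by this measure it was not among the most even. In the other tumours the ratio over all members was 1.98, 1.26 and 2.10 for tumours 2, 3 and 4. Bins of 1 array are not replicates, so no p is given.

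**Figure D3:**
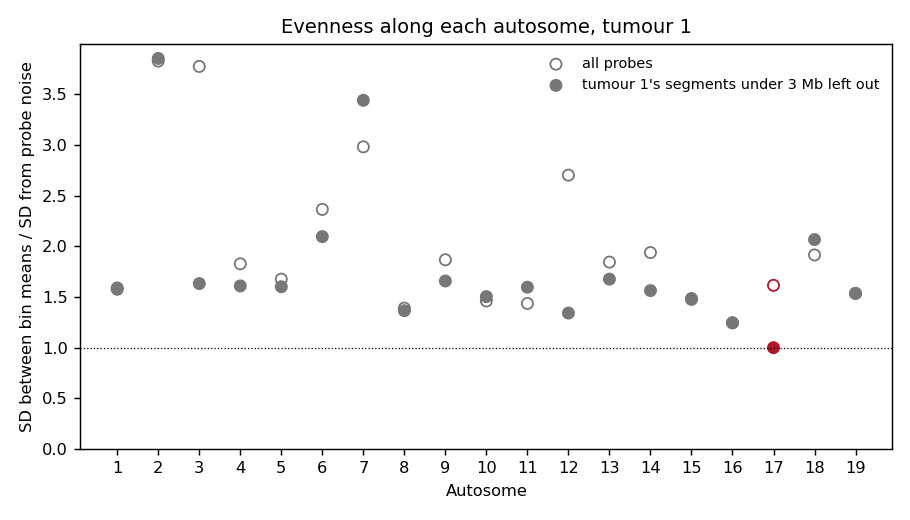
SD between 5 Mb bin means divided by the SD from probe noise (y axis) for each autosome of tumour 1 (x axis), with open circles for all probes and filled circles without that tumour's segments under 3 Mb. Chromosome 17, in red, moves from 1.61 to 0.998, next to the dotted line at 1.

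The segmentation that defined the raised stretch placed no border in tumour 1 other than those of that stretch. Its member segments were one of 3.2 Mb at -0.069, the raised stretch, and one of 88.3 Mb at -0.076 that runs across the H2 stretch to the end of the chromosome. Tumour 2 had a segment from 23766621 to 37106137 at 0.11, below the threshold of a call, and tumour 4 had a segment from 23860112 to 34765371 at -0.050. These 2 tumours lay on opposite sides of 0 over nearly the same stretch, as did their bins at 25 to 30 Mb, at 0.11 and -0.066. Over the 20 bins the correlation between tumours 2 and 4 was -0.64, a description over bins that differ in base composition.

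The proximal side exceeded the distal side by 0.015 in tumour 1, 0.046 in tumour 2 and 0.0063 in tumour 3, and lay below it by 0.016 in tumour 4. In 3 of 4 tumours the proximal side was higher, by amounts that differed more between tumours than their mean. The mean difference was 0.013 ± 0.026 (SD, n = 4), with p = 0.5 in an exact two-sided sign-flip permutation test, whose smallest possible p with 4 tumours is 0.13. The mean difference was 0.0020 without tumour 2, 0.023 without tumour 4, 0.0028 with the intensity trend removed and 0.022 after normexp background correction.

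Each channel of the members was also set apart against the mean of the same channel on the other 3 arrays. On array 1 the reference channel of the members lay at 0.106, above 0 in 20 of 20 bins, which ranged from 0.053 to 0.149. The tumour channel of array 1 lay at 0.024, between those of arrays 3 and 4. Without array 2 among the others, the reference lay at 0.081 and the tumour channel at 0.0028. Of the 2 channels of array 1, the reference thus lay farther from the other arrays.

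Channels differed between arrays elsewhere too. On array 2 both channels of the members were low, the tumour channel at -0.066 and the reference at -0.096, and the ratio of that array stayed near 0. On arrays 3 and 4 the channels lay between -0.033 and 0.045. The reference of array 1 was also raised on chromosome 7 (0.110) and chromosome 15 (0.102), but lay at 0.020 on chromosomes 1 and 9 and 0.022 on chromosome 12. Chromosome 7 was like chromosome 17 on array 1 in its other values too. Its tumour channel lay at 0.020 and its mean log2 ratio at -0.072, with bins from -0.18 to -0.017. Chromosomes 9 and 12, the 2 that were lower than chromosome 17 in tumour 1, had tumour channels of -0.055 and -0.049 on array 1. The part of the reference of array 1, which also went against its sex label, in the level of chromosome 17 cannot be told apart from that of the tumour DNA with 1 reference per array.

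**Figure D4:**
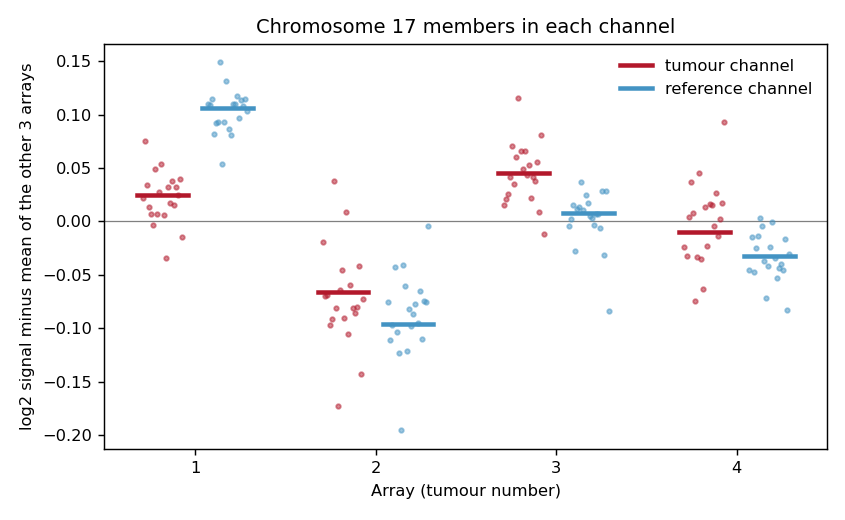
Log2 signal of the members in each channel minus the mean of the same channel on the other 3 arrays (y axis), by array (x axis). Points are 5 Mb bins and bars the mean over members. On array 1 the reference bar stands at 0.106 and the tumour bar at 0.024.

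The ratio followed the base composition of the probes, most of all in tumour 2. Members with at most 32% G and C (333 probes) averaged -0.10, -0.27, -0.0065 and -0.049 in tumours 1 to 4. Those over 41% (232 probes) averaged -0.0085, 0.29, 0.026 and 0.011. Tumour 1 lay below 0 in all 5 groups of G and C content, whereas the other 3 tumours each changed sign between groups. The correlation with G and C content over members was 0.13, 0.30, 0.050 and 0.11 in tumours 1 to 4, and over the 20 bins of tumour 2 it was 0.82. Its part in the single gene values of tumour 2 was not tested. The lowest and the highest member probe of tumour 2, at -2.31 and 1.26, held 33.3% and 38.3% G and C. Members with over 32 to 35% G and C averaged -0.11 in tumour 2, and those with over 38 to 41% averaged 0.10. Both probes thus lay far from the mean of their group. The part of base content in these probe values was not tested either.
Fbxo11, lowest member probe in tumour 2, chr17:88414882-88414941: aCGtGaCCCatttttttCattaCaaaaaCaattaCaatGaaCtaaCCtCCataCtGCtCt
no gene name, highest member probe in tumour 2, chr17:9853964-9854023: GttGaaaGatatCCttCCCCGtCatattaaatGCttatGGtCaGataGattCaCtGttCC

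At the level of genes, 510 member genes had at least 2 probes, and none passed an adjusted p of 0.05 in the limma fit over all 13389 autosomal genes. The background was the same, with 0% of all genes called lower and 0% higher. At an unadjusted p under 0.05 the fit gave 70 member genes, 62 of them lower, among 2540 over all genes. The fit sets the mean of the 4 tumours against 0 and is the contrast on which the region was chosen, so nothing is read from these counts. They also depend on the setting, with 36 member genes called after normexp background correction (11% of all genes), 21 with the slide as a random block (8.32%), 16 without tumour 2 (8.68%), 5 with at least 4 probes per gene (6.38%) and 2 with the intensity trend removed (1.59%). In each of these settings the share among members was below that over all genes. In tumour 1 alone, 435 of 510 member genes (85.3%) lay below 0, where 48.2% of all genes did. The medians over member genes were -0.076, 0.027, 0.0028 and -0.021 in tumours 1 to 4, beside 0.0043, -0.0019, -0.011 and -0.019 over all genes.

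Of bins, 0 of 20 members were called by limma with Benjamini-Hochberg adjustment, beside 6.57% of all bins called lower and 4.18% called higher, and 1 member bin (40 to 45 Mb, adjusted p = 0.24) had an unadjusted p under 0.05.

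Of 17 growth and oncogene genes found among the members, 14 lay below 0 in tumour 1, where 85.3% of all member genes with at least 2 probes did. The list medians were -0.065, 0.033, 0.015 and -0.012 in tumours 1 to 4. None of the 14 tested was called. Runx2, which encodes the transcription factor of bone formation, lay at -0.065, -0.066, -0.062 and -0.012 over 21 probes. Prkce, the gene of protein kinase C epsilon, lay at -0.097, 0.050, -0.029 and -0.0056 over 39 probes. Ccnd3 (cyclin D3, which drives entry into the cell cycle) lay at -0.040, 0.049, 0.022 and -0.060. The 4 tumours did not share a side at Prkce and Ccnd3. Fgfr1op, a centrosomal protein gene, ran from -0.072 in tumour 2 to 0.041 in tumour 3.

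Of 17 tumour suppressor and genome maintenance genes, 17 lay below 0 in tumour 1, where 85.3% of all member genes did. The list medians were -0.088, -0.063, -0.020 and -0.067, and none of the 14 tested was called. Igf2r, the imprinted receptor that clears the growth factor IGF2, was below 0 in each tumour, at -0.18, -0.14, -0.12 and -0.096 over 14 probes. Its mean was -0.13 ± 0.034 (SD, n = 4), with an adjusted p of 0.14 in limma. With the slide as a random block (correlation within slides -0.34) the limma adjusted p was 0.047, where 8.32% of all genes were called. The fit is the contrast on which the region was chosen, so nothing is read from these p. Park2, the gene of the ubiquitin ligase parkin and the member gene with the most probes of these lists (123), lay at -0.067, -0.063, -0.020 and 0.047. Birc6, a large inhibitor of apoptosis, lay at -0.085, -0.27, -0.042 and -0.067. These 4 values share a side, with tumour 2 the farthest from 0. Smchd1, a chromatin protein of the inactive X, ran from -0.18 in tumour 2 to 0.013 in tumour 3, and Thada, named BC052885 on the array, from -0.091 in tumour 1 to -0.016 in tumour 4.

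Of 20 liver function genes, 17 lay below 0 in tumour 1, beside 85.3% of all member genes. The list medians were -0.091, 0.11, 0.030 and 0.00043, and none of the 19 tested was called. Slc22a3, an organic cation transporter, lay at -0.14, -0.073, 0.053 and -0.049 over 11 probes. Xdh, the gene of the purine-degrading xanthine dehydrogenase, lay at -0.097, 0.0045, 0.0083 and 0.023, with tumour 1 alone below 0. Agpat4, an acyltransferase of phospholipid synthesis, lay at -0.047, 0.14, 0.035 and -0.00076. Tumour 2 was the highest of the 4 at Agpat4 and again at Cyp4f13, a fatty acid hydroxylase gene (-0.039, 0.39, 0.099 and 0.048 over 5 probes). Lpin2, a phosphatidate phosphatase gene, was above 0 in tumour 1, at 0.0027. Glo1, which encodes the detoxifying enzyme glyoxalase 1, lay at -0.018, 0.084, -0.039 and -0.030 over 4 probes, within 0.1 of 0 in each tumour.

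Of 15 t complex and imprinted genes, 11 lay below 0 in tumour 1, beside 85.3% of all member genes. The list medians were -0.048, 0.024, -0.020 and 0.020, and none of the 13 tested was called. Tcte2, a t complex gene expressed in testis, lay at -0.17, -0.30, -0.16 and -0.18 over 7 probes, and was among the 3 lowest member genes with at least 5 probes. Its limma adjusted p was 0.081, and 0.022 with the slide as a random block, where 8.32% of all genes were called. Nothing is read from these p either. Tiam2, an activator of the GTPase Rac, lay at -0.039, 0.18, 0.020 and 0.093. Pde10a, a cyclic nucleotide phosphodiesterase gene, lay at -0.022, 0.024, 0.0054 and 0.057. Tumour 1 was the lowest of the 4 at both Tiam2 and Pde10a.

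The 24 long genes rest on 722 probes, the most of the lists. In tumour 1, 23 of 24 lay below 0, beside 85.3% of all member genes, with a median of -0.085. The exception was Tulp4, at 0.024, which reaches into the raised stretch. Their medians in tumours 2 to 4 were -0.014, 0.0041 and 0.057, and none of the 24 was called. Ptprm, a receptor tyrosine phosphatase gene with 63 probes, lay at -0.049, 0.081, 0.040 and 0.10, and Alk, a receptor tyrosine kinase gene with 62 probes, at -0.079, 0.089, 0.010 and 0.065. At both genes tumour 1 was the lowest tumour and the only one below 0.

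The lowest means among genes with at least 5 probes were those of Fbxo11, Tcte2 and BC100359. Fbxo11, a subunit gene of a ubiquitin ligase, lay at -0.22, -0.48, -0.068 and -0.10 over 8 probes, with a mean of -0.22 ± 0.19 (SD, n = 4, limma adjusted p = 0.19). BC100359 lay at -0.18, -0.37, -0.11 and -0.076. All 3 gene means were below 0 in every tumour and farthest from 0 in tumour 2. For Fbxo11 this rests in part on 1 of its 8 probes. That probe lay at -0.31, -2.31, -0.53 and -0.73 in tumours 1 to 4. A shared side, here and for the highest means, follows in part from the choice by mean. Ratios of autosomal probes also correlated between arrays (Pearson 0.14 to 0.50), so the 4 values are not independent. The cause was not tested. The highest means were those of AK014409, Cyp4f13 and Foxn2, a forkhead gene. Foxn2 was above 0 in all 4 tumours, at 0.14, 0.30, 0.16 and 0.12 over 5 probes. Its mean was 0.18 ± 0.082 (SD, n = 4, limma adjusted p = 0.12). With the slide as a random block its limma adjusted p was 0.035, where 8.32% of all genes were called. After normexp background correction Fbxo11, Tcte2, AK014409 and Foxn2 were called, with limma adjusted p from 0.027 to 0.048, where 11% of all genes were called. Nothing is read from these calls.

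**Figure D5:**
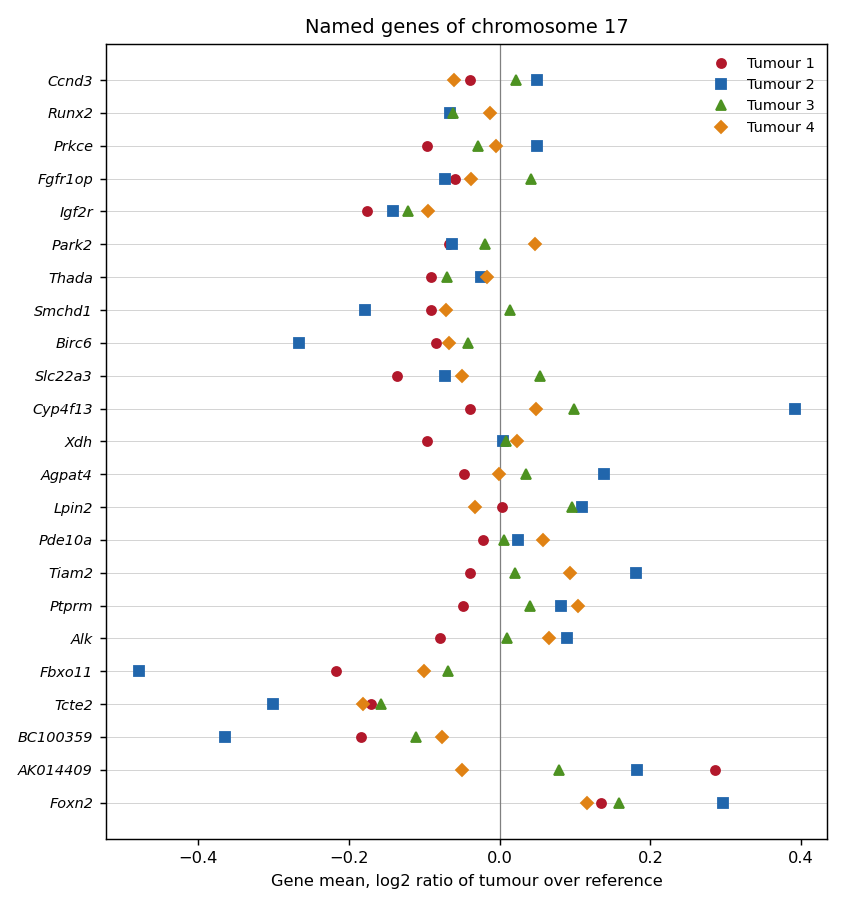
Gene means (x axis, log2 ratio of tumour over reference) of the named genes (y axis), with 1 symbol per tumour. Tumour 1 lies below 0 at most genes, AK014409 and Foxn2 being exceptions at 0.29 and 0.14, and the values of tumour 2 spread the most, from -0.48 at Fbxo11 to 0.39 at Cyp4f13.

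Among 195 member genes with at least 5 probes, 182 lay below 0 in tumour 1, with a median of -0.078, and 90% lay between -0.17 and 0.0099. The 3 highest were Tmem181, AK014409 and Foxn2, of which the first 2 lie in the raised stretch. The lowest was Lhcgr, the receptor gene of luteinizing hormone, at -0.24 over 5 probes, which lay at 0.029, 0.063 and -0.048 in tumours 2 to 4. Genes were also grouped by the start of their names, since probes of families with many similar copies may bind more than 1 site. Only the Tcp10 group had a median above 0 in tumour 1, at 0.034 over 2 genes. These were Tcp10a at -0.027 (8 probes) and Tcp10c at 0.096 (1 probe). The 14 Vmn2r genes, receptors of the vomeronasal organ, had a median of -0.098 there and the 19 Zfp genes, of zinc finger proteins, one of -0.081. Their medians ranged from -0.17 to 0.033 in the other tumours. The other 6 groups with a member (Fpr, Crisp, Tcp10, Cyp4f, Treml and Gm) held 1 to 6 genes each, with medians from -0.23 to 0.034 in tumour 1.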

How the data were processed

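Genomic DNA of 4 tumours was measured on 4 two-colour arrays. Per the file headers, processed intensities as deposited came from Agilent Feature Extraction 12.0.1.1 (12.0.0 per the submitters' processing notes), background-subtracted and dye-normalized, with positions on mm9. The deposited mean and background intensities and the authors' log10 ratio served alternatives. From the processed intensities, log2 of red over green was computed per spot, flagged spots were left out, repeated spots averaged and each array centred on its autosomal median, without loess or quantile normalization. A genome of mm9 was not used here, gene names are those of the array, and synonyms came from RefSeq.

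Bins of 5 Mb held at least 20 probes. Segments were found by penalised least squares (factor 3). Genes and bins were tested against 0 with limma 3.58.1 in R 4.3.3 and Benjamini-Hochberg adjustment, which leaves out the spread of the reference. The steps were tested on simulated data. The tumours are separate animals, and their number limits the precision.

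Named genes were, of each list, the 5 members with the most probes, the 3 highest and 3 lowest means among genes with at least 5 probes, the genes of called segments under 3 Mb, and Glo1. Of these, 3 genes are not reported here. The region and the lists were chosen with earlier results of these data known.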

Additional observations from a re-analysis of the deposited data

Results flagged for a closer look

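Sets of 4 tumour values with 1 value far from the others are given here as a description. The region was chosen on its level, so the mean over members of tumour 1, -0.075, and its bins at 80 to 85 Mb and 85 to 90 Mb, at -0.081 and -0.075, restate that choice. Among 26 genes, Xdh stood apart in tumour 1 at -0.097 and Runx2 in tumour 4 at -0.012. In tumour 2, Tcte2 stood apart at -0.30 and Glo1 at 0.084. Chance would mark about 1 in 20 if the values were independent and of like spread. The noise SD of the arrays ran from 0.12 (tumour 1) to 0.37 (tumour 2), and no share over all genes is given. Nothing is read from the number marked. The bins and genes of 1 tumour share its array, so the marked values are not independent of each other or of the choice of the region.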

How the results depend on the processing

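The mean of tumour 1 stayed between -0.091 and -0.074 under the alternatives tried. Centring on the mode moved the average over tumours to -0.032, and that average ranged from -0.026 to 0.000197 when each tumour was left out, turning positive without tumour 1. Proximal minus distal ranged from 0.0020 to 0.023 when each tumour was left out. The SD between bins of tumour 1 moved by over 1.5 times in 2 alternatives, to 0.0275 with normexp and to 0.0104 without the raised stretch. Counts of member genes called by limma depended on the setting, while no member bin was called under any. They were 36 with normexp, 21 with the slide as a random block (30 and 19 of them lower), 0 to 16 when each tumour was left out (16 without tumour 2), 5 with at least 4 probes per gene and 2 with the intensity trend removed. The 5 were Memo1, Tcte2, Ndufv2 and AK019508, lower, and Foxn2, higher, and the 2 were Khsrp and BC068229, both lower, all named after their values were seen. Over all genes tested the share called was 11%, 8.32%, 8.68% (without tumour 2), 6.38% and 1.59% in these settings. The cause was not tested. Called stretches fell from 3 to 1 with a penalty factor of 6, which kept the gain of tumour 1. The Tbc1d5 loss of tumour 4 was not called with normexp, and the gain of tumour 1 was not called with the intensity trend removed or a threshold of 0.3. With 4 arrays and 1 reference pool each, a difference between references cannot be told apart from one between tumours.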
